A study of Bos taurus with 8 samples.

Results

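Macrophage and other leukocyte markers were followed in the rumen papillae of dairy cows. A set of 10 genes was chosen by name: CD68, CD163, CSF1R, AIF1, ITGB2, ITGAM, TYROBP, FCER1G, LAPTM5 and CYBB. A gene counted as measured if a non-control probe carried a RefSeq accession that the bovine gene table links to its symbol. Of the 10 genes, 6 had a probe, out of 7788 genes with a probe on the array, and on all 8 arrays 5 gave a signal well above background, out of 6469 such genes. The 5 were CD68, AIF1, LAPTM5, FCER1G and ITGB2. The probe of ITGAM passed that test on 0 of 8 arrays. CD163, CSF1R, TYROBP and CYBB had no probe linked to them and were not analysed here.

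The papillae came from 4 lactating Holstein cows with a ruminal cannula, each sampled on a diet with 40% concentrate (LC, the low-concentrate diet) and on one with 70% (HC, the high-concentrate diet). All cows had received a diet with less concentrate than LC before the trial, and papillae of the ventral sac were taken on day 21 of each period, 4 h after the morning feeding, and rinsed in buffered saline. Cows 1 and 2 had LC first and HC second, and cows 3 and 4 the reverse, so that both diets were sampled in period 1 and in period 2. Whole papillae were used, so epithelium, connective tissue, vessels and the leukocytes in them were measured together, and fewer cells of a type and less RNA per cell cannot be told apart.

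Macrophages are resident phagocytes of barrier tissues such as the rumen wall, where they take up microbes and dying cells and signal to lymphocytes. They develop and survive through the receptor CSF1R, kill with the oxidase of which CYBB is the catalytic subunit, adhere through the beta-2 integrins, which pair the common subunit ITGB2 with an alpha subunit such as ITGAM, and signal through the adaptors TYROBP and FCER1G. Most of these genes are also used by neutrophils, and ITGB2 and LAPTM5 also by lymphocytes, so the set marks leukocytes more broadly than macrophages.

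Every sample had an array of its own, in a single colour. The 2 slides held 4 arrays each, all of 1 period, and therefore a slide effect cannot be told apart from a period effect. Per array, 76.9 to 81.2% of the 21475 probes were well above background by the scanner software's own test, and the number of arrays limits the precision. The columns of the deposited normalized table named for cows 1 and 2 followed the scanner file of the other of these 2 cows, on both diets (r of 0.9988 to 0.9989, against 0.9939 to 0.9946 with the file of the same name). The cows are named here as the labels name the scanner files. The exchange moves no value between diets or between cow pairs, but in the table's naming cow 1 is cow 2. Of the keratinocyte markers fixed for the tissue, 10 had a probe and 9 gave a signal well above background throughout, among them KRT14 and KRT6A, keratins of the basal and the suprabasal layers. TP63, the transcription factor of squamous basal cells, was well above background on 0 arrays.

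Values below are quantile-normalized log2 signals, in which a difference of 1 is a doubling. They depend on the probe, so no gene's level is set against another's. Differences between diets are HC minus LC from limma, fitted to all probes with diet, period and their interaction. A probe was called with an unadjusted p under 0.05 and a fold change of at least 1.5, the thresholds of the study. For diet, 0 of the 5 detected markers were called, beside 198 of 21475 probes (0.922%). Of the 6469 genes well above background on all 8 arrays, as the 5 are, 21 (0.325%) were called. All 5 had a positive difference, between 0.08 and 0.30, and each had an adjusted p of 1. The diets overlapped for each of the 5.

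CD68 is a glycoprotein of the lysosomes and late endosomes of phagocytes and the classical macrophage stain. On LC its log2 signal was 5.87, 5.91, 5.44 and 5.96 in cows 1 to 4, and on HC it was 6.35, 6.05, 5.92 and 5.40. The highest and the lowest array were both on HC, those of cow 1 and cow 4. The means were 5.79 ± 0.24 (SD, n = 4) on LC and 5.93 ± 0.40 (SD, n = 4) on HC. The difference was 0.14 (SE 0.18, 95% interval -0.29 to 0.56), to which limma gave an unadjusted p of 0.463 and the exact two-sided permutation test 0.543. Here and below, that test exchanged single arrays between the diets and took no account of cow or period. In 3 of 4 cows HC had the higher signal, and in cow 4 it was lower by 0.55. The difference was 0.01 without either array of cow 3, 0.06 without the HC array of cow 1, 0.21 without that of cow 2, and 0.27 without either array of cow 4.

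AIF1 encodes IBA1, an actin-bundling protein of macrophages that serves membrane ruffling and phagocytosis. Its log2 signal on LC was 9.71, 9.80, 9.47 and 9.95 in cows 1 to 4, and on HC 10.48, 9.95, 9.30 and 9.53. AIF1 had the widest spread over the 8 arrays among the detected markers, 1.18, and was highest on the HC array of cow 1. The means were 9.73 ± 0.20 (SD, n = 4) on LC and 9.81 ± 0.52 (SD, n = 4) on HC, with a difference of 0.08 (SE 0.17, 95% interval -0.33 to 0.50, p = 0.646 in limma, exact two-sided permutation p of 0.8). Cows 1 and 2 had higher values on HC, by 0.77 and 0.15, while cows 3 and 4 had values on HC that differed from LC by -0.16 and -0.43. The difference was -0.05 without the HC array of cow 1 and -0.04 without the LC array of cow 3, and 0.03 to 0.22 without each of the other arrays.

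LAPTM5 encodes a lysosomal membrane protein of haematopoietic cells that takes part in the turnover of antigen receptors. It varied least, with a range of 0.46 over the 8 arrays. On LC the log2 signal was 10.39, 10.44, 10.44 and 10.60 in cows 1 to 4, and on HC 10.84, 10.49, 10.51 and 10.70. The lowest 3 arrays were on LC, and the 4th LC array, that of cow 4, lay among those on HC. The means were 10.47 ± 0.09 (SD, n = 4) on LC and 10.64 ± 0.17 (SD, n = 4) on HC, a difference of 0.17 (SE 0.12, 95% interval -0.12 to 0.45, limma p = 0.202, exact two-sided permutation p of 0.143). All 4 cows had the higher value on HC, by 0.46 in cow 1 and by 0.05, 0.06 and 0.10 in cows 2, 3 and 4. Without the HC array of cow 1 the difference was 0.08, and 0.26 without that of cow 2.

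FCER1G, the common gamma chain of Fc receptors, carries the activation motif through which macrophages, neutrophils and mast cells respond to antibody. Its log2 signal was 6.07, 5.77, 5.43 and 5.57 on LC and 6.21, 5.78, 6.02 and 6.01 on HC. The lowest 2 values were those of cows 3 and 4 on LC, in period 2. FCER1G had the largest diet difference of the detected markers, 0.30 (SE 0.13, 95% interval -0.03 to 0.62), to which limma gave an unadjusted p of 0.0655 and the exact two-sided permutation test 0.171. The upper end of the interval is a fold change of 1.53. The means were 5.71 ± 0.28 (SD, n = 4) on LC and 6.00 ± 0.18 (SD, n = 4) on HC. The cows' own differences were 0.14, 0.00, 0.59 and 0.45, with that of cow 2 positive by less than 0.01. Without the HC array of cow 1 the difference was 0.19, and 0.40 without that of cow 2. FCER1G and LAPTM5 were the 2 of 5 markers that were higher on HC in all 4 cows, beside 6.46% of the 16030 probes that passed the background test on every array.

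ITGB2 encodes CD18, the beta subunit without which no beta-2 integrin reaches the leukocyte surface. Its log2 signal was 9.32, 9.64, 10.00 and 10.15 on LC and 9.72, 9.64, 10.13 and 10.03 on HC in cows 1 to 4. The arrays parted by cow and not by diet: all 4 arrays of cows 1 and 2 lay below all 4 of cows 3 and 4. The diet difference was 0.10 (SE 0.11, 95% interval -0.16 to 0.36, limma p = 0.369, exact two-sided permutation p of 0.629), with means of 9.78 ± 0.37 (SD, n = 4) on LC and 9.88 ± 0.24 (SD, n = 4) on HC. It was 0.02 without the LC array of cow 1 and 0.18 without that of cow 2. ITGAM, the alpha subunit that forms complement receptor 3 with it, had log2 signals of 0.49 to 1.68, under the lowest signal that was well above background on any array (2.02), and no fold change is given for it. ITGAL, the alpha subunit of the lymphocyte integrin LFA-1, was also well above background on 0 arrays, while ITGAX and ITGAD had no probe linked to them. ITGB2 was therefore measured without a measured alpha subunit.

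**Figure D1:**
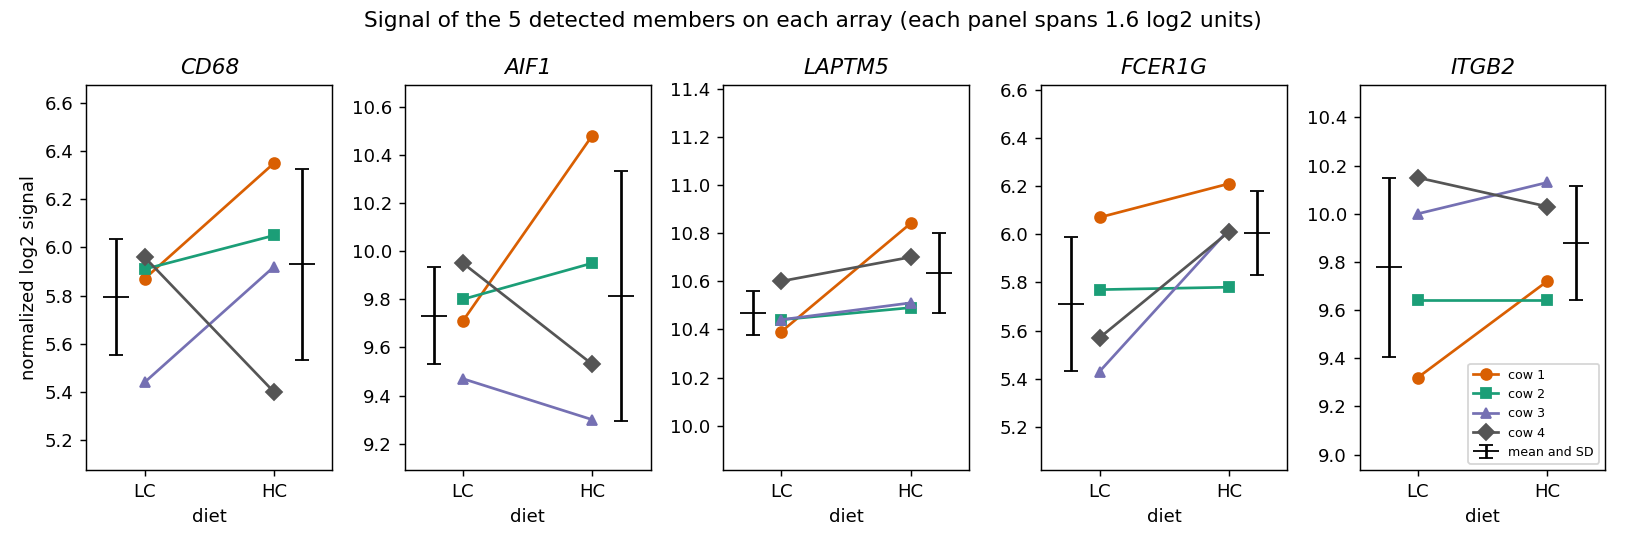
Normalized log2 signal of CD68, AIF1, LAPTM5, FCER1G and ITGB2 on each array, with a line from the LC to the HC array of each cow; horizontal marks and bars are the mean and SD of the 4 arrays of a diet, and every panel spans the same number of log2 units. The diets overlap in every panel; LAPTM5 and FCER1G are higher on HC in all 4 cows (cow 2 by less than 0.01 for FCER1G), AIF1 goes up in cows 1 and 2 and down in cows 3 and 4, and ITGB2 parts by cow.

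Between periods, 0 of the 5 markers were called, beside 828 of 21475 probes (3.86%) and 98 of the 6469 genes well above background on all 8 arrays (1.51%). AIF1 had the largest difference, 0.38 higher in period 2 (SE 0.17, unadjusted p of 0.0679 and adjusted p of 0.462, limma). The HC arrays differed more: on them AIF1 had a mean of 9.42 in period 1 (cows 3 and 4) and 10.21 in period 2 (cows 1 and 2), while the LC means were 9.75 and 9.71. FCER1G had a period difference of -0.22 with an unadjusted p of 0.14 in limma, and LAPTM5, ITGB2 and CD68 had differences of 0.08, 0.09 and 0.17.

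Each cow received one diet per period, so the interaction of diet and period is the contrast of cows 1 and 2 with cows 3 and 4. Over the means of each cow, 0 of the 5 markers were called for it, beside 532 of 21475 probes (2.48%). Of the 6469 genes well above background on all 8 arrays, 97 (1.5%) were called for it. ITGB2 had cow means of 9.52, 9.64, 10.06 and 10.09, and its difference between the cow pairs was -0.49 (SE 0.11, unadjusted p of 0.0108 and adjusted p of 0.817, limma). That of CD68 had the opposite sign, 0.37 (SE 0.11, unadjusted p of 0.0307 and adjusted p of 0.817, limma), and AIF1 had 0.42, FCER1G 0.20 and LAPTM5 -0.02. The smallest adjusted p over all probes for this contrast was 0.318.

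Within a period, LC and HC arrays are of different cows, so these values hold the difference between cow pairs too. In period 1 the diet differences were -0.23 for CD68, -0.34 for AIF1, 0.19 for LAPTM5, 0.10 for FCER1G and 0.60 for ITGB2. In period 2 they were 0.50, 0.50, 0.14, 0.49 and -0.39 in the same order. LAPTM5 and FCER1G kept their sign in both periods, while CD68, AIF1 and ITGB2 did not.

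The mean log2 signal of the 5 detected markers was 8.27, 8.31, 8.15 and 8.44 on LC and 8.72, 8.38, 8.38 and 8.34 on HC in cows 1 to 4. It was 8.30 ± 0.12 (SD, n = 4) on LC and 8.45 ± 0.18 (SD, n = 4) on HC, and the cows' own differences were 0.45, 0.07, 0.22 and -0.11. The difference of 0.16 was 0.07 without the HC array of cow 1. No test is given for this mean, since the markers were chosen as a set. The period means were 8.32 ± 0.04 (SD, n = 4) and 8.42 ± 0.23 (SD, n = 4).

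The 5 markers did not follow one another closely over the 8 arrays. The Pearson r of each with the mean of the other 4 was 0.74 for LAPTM5, 0.56 for CD68, 0.52 for AIF1, 0.27 for FCER1G and -0.33 for ITGB2, over 8 arrays that share 4 cows. What 4 of the 5 had in common was the array on which they were highest, the HC array of cow 1. ITGB2 was highest on the LC array of cow 4. Of all 16030 probes, 11.3% were highest on the HC array of cow 1.

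The partners of these markers were taken from lists of genes named by function. Apart from the markers themselves, the lists hold 70 genes, of which 35 had a probe and 31 passed the background test on every array. For diet, 0 of the 31 were called, beside 0.325% of the 6469 genes measured as they were, and 0 had an unadjusted p under 0.05 in limma. The difference was positive for 26 and negative for 5, with a median of 0.19, while over all 6469 genes the median was 0 and 51.2% were positive. Most genes in the lists of the tissue's own cells, given below, had a positive difference too. Higher on HC in all 4 cows were 5 of the 31 (16.1%), against 7.1% of all genes.

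Around the oxidase, 4 partners of CYBB were measured and 3 of 4 had a positive diet difference, with a median of 0.12. CYBA, which forms the membrane part of the oxidase with CYBB, had a difference of -0.13 (SE 0.14). NCF1, the cytosolic organizer, had 0.09 (SE 0.16).

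Among the receptors and adaptors that signal as FCER1G and TYROBP do, 6 genes were measured with FCER1G included, and 5 of 6 differences were positive, with a median of 0.29. FCGR3A, the low-affinity receptor for IgG that pairs with FCER1G, had log2 signals of 6.95, 7.04, 6.52 and 7.31 on LC and 7.73, 7.76, 6.79 and 7.65 on HC. All 4 cows had more of it on HC, by 0.27 to 0.78, and the difference was 0.53 (SE 0.25, 95% interval -0.07 to 1.12, unadjusted p of 0.0743 in limma). TREM1 and TREM2 are receptors that pair with TYROBP. TREM1, which amplifies inflammation in neutrophils and monocytes, was lower on HC in 4 of 4 cows, with a difference of -0.17 (SE 0.15). TREM2, a lipid receptor of tissue macrophages, had a difference of 0.19 (SE 0.12).

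With ITGB2 included, 4 genes of the beta-2 integrins, their ligands and their activator were measured, and all 4 differences were positive, with a median of 0.08. The ligand ICAM3 differed by 0.02 (SE 0.09), FERMT3, the kindlin that activates integrins in blood cells, by 0.05 (SE 0.15), and the inducible ligand ICAM1 by 0.26 (SE 0.26). ICAM1 was highest at 8.32 on the HC array of cow 2, and lay between 6.90 and 7.82 on the others.

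On the CSF1R axis, 2 of 4 differences were positive. SPI1 encodes PU.1, the transcription factor that drives CSF1R and other genes of the myeloid line. Its log2 signal was 9.82, 9.64, 9.58 and 9.74 on LC and 10.23, 9.97, 9.69 and 10.05 on HC. HC had the higher value in 4 of 4 cows, by 0.11 to 0.41, with a difference of 0.29 (SE 0.13, 95% interval -0.02 to 0.60, unadjusted p of 0.0619 in limma). CEBPA, a transcription factor of myeloid cells and of some epithelia, differed by -0.20 (SE 0.18).

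Of the other macrophage markers, 10 were measured and 9 had a positive difference, with a median of 0.16. HMOX1, the haem-degrading enzyme of macrophages and stressed cells, had the largest, 0.61 (SE 0.29, 95% interval -0.10 to 1.32, unadjusted p of 0.0796 in limma), and was higher on HC in 3 of 4 cows. LGMN, a lysosomal protease, differed by 0.08 (SE 0.10) and LGALS3, a lectin of macrophages and epithelia, by -0.07 (SE 0.15).

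All 5 measured pan-leukocyte markers had a positive difference, with a median of 0.24. CORO1A, an actin-binding protein of leukocytes, had log2 signals of 7.34, 7.04, 7.02 and 7.51 on LC and 8.21, 7.46, 7.56 and 7.54 on HC. Its HC value was the higher in 4 of 4 cows, by 0.03 to 0.87, with a difference of 0.46 (SE 0.21, 95% interval -0.03 to 0.96, unadjusted p of 0.0628 in limma). CD48, a ligand of lymphocyte and NK cell receptors, differed by 0.23 (SE 0.24), and ARHGDIB, a regulator of small GTPases in blood cells, by 0.06 (SE 0.12).

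**Figure D2:**
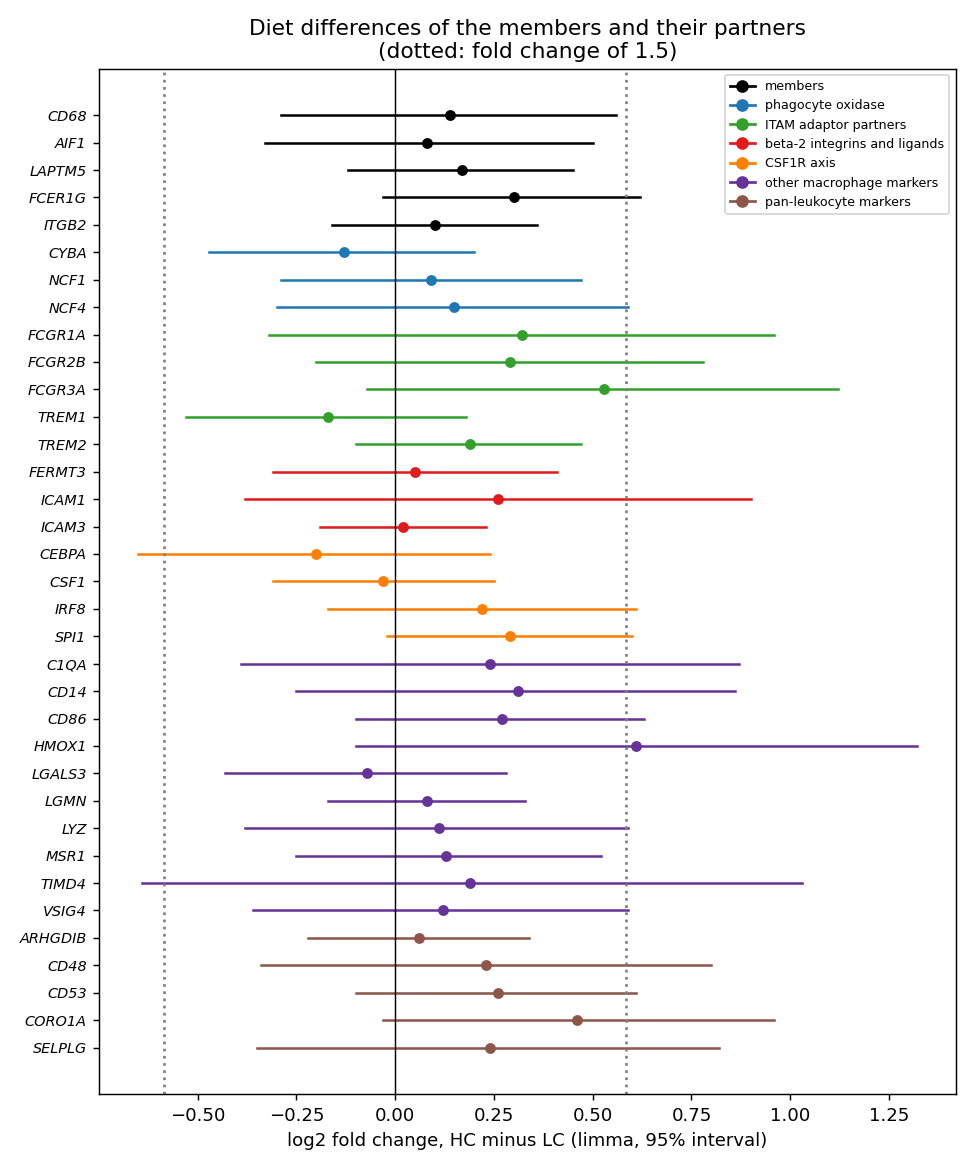
Diet difference (log2, HC minus LC) of the 5 detected markers and of 30 of their 31 measured partner genes, grouped by function; points are limma estimates, bars 95% intervals, and dotted lines mark a fold change of 1.5 in either direction. All intervals include 0, although most points lie to the right of it, with a median of 0.19 for the partners drawn.

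Between periods, 0 of the 31 partners were called, beside 98 of 6469 genes (1.51%). Between the cow pairs 3 were, all higher in cows 1 and 2, beside 97 of 6469 genes (1.5%). They were NCF1 with 0.64 (SE 0.17, unadjusted p of 0.0166), LYZ with 0.69 (SE 0.15, unadjusted p of 0.00971) and CD48 with 0.74 (SE 0.17, unadjusted p of 0.0108), from limma on cow means, each with an adjusted p of 0.817. LYZ encodes lysozyme, and it was named after its values were seen.

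The array that stood highest for most of the set also did so for the partners. Of the 31 partners, 18 (58.1%) were highest on the HC array of cow 1, against 12.8% of all genes, and they include all 5 pan-leukocyte markers and 8 of 10 other macrophage markers. On average over a list, that array lay above the mean of all arrays by 0.67 for the pan-leukocyte markers, 0.43 for the other macrophage markers, 0.35 for the markers of the set, 0.31 for the FCER1G and TYROBP partners, 0.29 for the oxidase and 0.20 for the CSF1R axis. For the beta-2 integrins and ligands it lay at -0.04. In these list averages, FCER1G is counted among the FCER1G and TYROBP partners and ITGB2 among the integrins. At the other end, 17 of the 31 (54.8%) were lowest on the LC array of cow 3, against 18.8% of all genes, with mean deviations of -0.38 for the other macrophage markers and -0.35 for the pan-leukocyte markers. The LC array of cow 3 also had the lowest share of probes well above background, 76.9%, and the HC array of cow 1 the next lowest, 77.4%. The part of this share in the result was not tested.

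**Figure D3:**
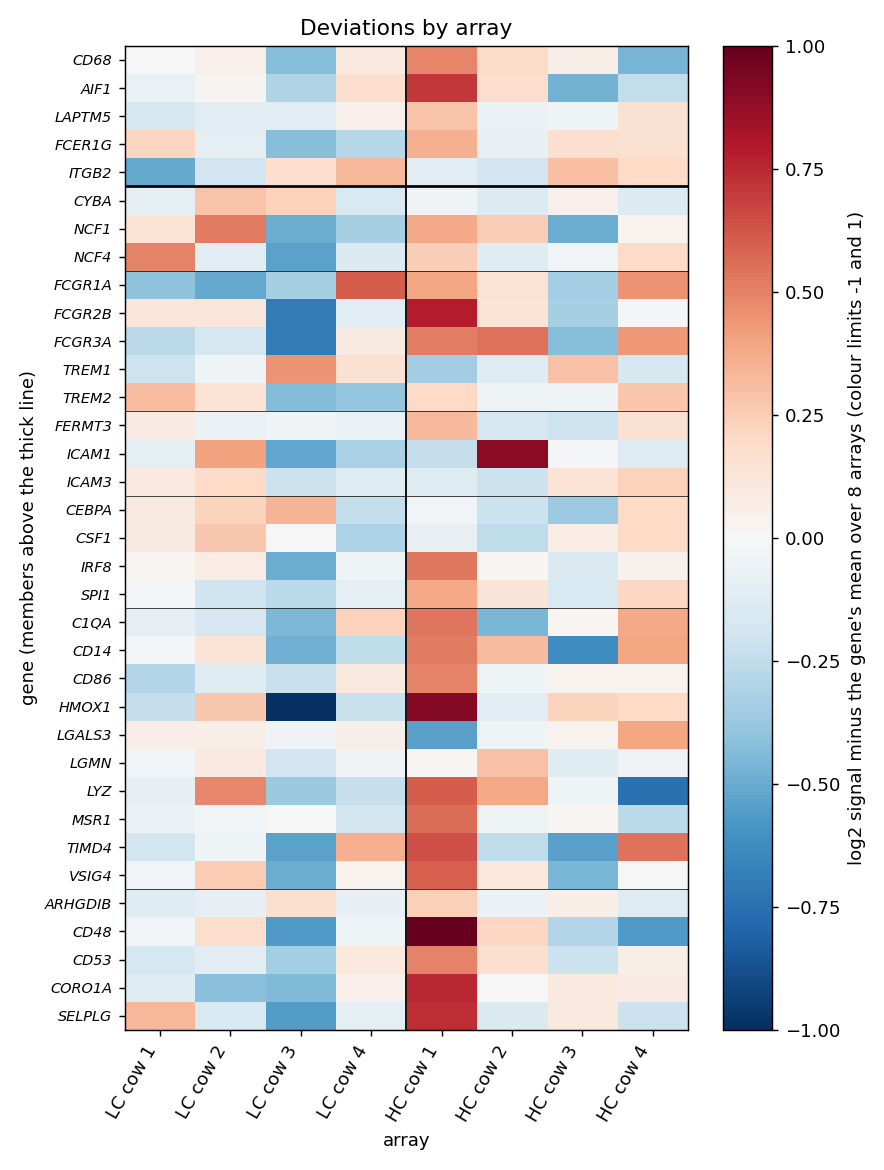
Log2 signal of each detected marker (above the thick line) and of 30 of the 31 partner genes (below, with thin lines between lists) on each array, as the difference from the gene's mean over the 8 arrays; red is above and blue below that mean, and colours end at -1 and 1. The HC array of cow 1 is the highest for 4 of the 5 markers and 17 of the 30 partners drawn, and the LC array of cow 3 the lowest for 16 of the 30.

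Markers of other leukocytes and of blood stood high on the same array in part. On the HC array of cow 1, the neutrophil list lay 0.36 above its mean (7 genes), the dendritic and Langerhans cell list 0.59 (3 genes) and the mast cell list 0.46 (3 genes), against 0.12 for T and NK cells (7 genes) and 0.02 for B and plasma cells (3 genes). Defining markers of several of these cells were at background: MPO of neutrophils, CPA3 of mast cells and KLRD1 and NCR1 of NK cells were well above background on 0 arrays. The red cell list lay at 0.68 on the HC array and 0.56 on the LC array of cow 1, and at -0.82 and -0.50 on the LC and HC arrays of cow 4 (4 genes). The part of blood and of these cells in the values of the markers was not tested.

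For diet, 0 genes of these lists were called either, beside 0.325% of the 6469 genes well above background on all 8 arrays. CCR7 and CD83, of migrating dendritic cells, had differences of 0.51 (SE 0.30) and 0.31 (SE 0.18), and EPCAM, of Langerhans cells and epithelia, 0.07. Of T cell genes, CD4, CD3G and CD3E differed by -0.06, -0.17 and 0.30. S100A12, S100A8 and S100A9, calcium-binding proteins that neutrophils and squamous epithelia share, differed by 0.05, 0.09 and 0.28, and HDC, GATA2 and KIT, of mast cells, by 0.05, -0.11 and 0.27. JCHAIN, which joins the chains of secreted antibodies, differed by 0.08. Among the list genes well above background on all 8 arrays it alone was called for period, beside 1.51% of the 6469 genes. Its value was higher by 0.75 in period 2 (SE 0.24, unadjusted p of 0.0197 and adjusted p of 0.293, limma). Called the other way were MS4A1, the B cell antigen CD20, with -0.77, and ALAS2, a haem synthesis enzyme of red cell precursors, with -0.94, which were well above background on 5 and 2 arrays. CSF2RB, a cytokine receptor of the CSF1R list, met the thresholds for period too, but was well above background on 0 arrays. These 3 were named after their values were seen. MMP9, a protease of neutrophils, was called between the cow pairs with 0.73, as was the haemoglobin gene HBG with 2.07 (unadjusted p of 0.00311 and 0.0106 from limma on cow means, adjusted p of 0.817 for each). MMP9 was named after its value was seen.

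The lists of the tissue's own cells lay, on the HC array of cow 1, at -0.14 for keratinocytes (9 genes), 0.18 for fibroblasts (10 genes), -0.06 for endothelium (8 genes) and -0.08 for smooth muscle (7 genes). Their median diet differences were 0.01, 0.11, 0.09 and 0.04, and 6 of 9, 8 of 10, 8 of 8 and 5 of 7 genes had a positive difference. The brightest keratinocyte markers KRT14 and KRT6A differed by -0.09 and 0.04, and DSG1, a desmosomal cadherin, had the largest difference of that list, -0.64 (SE 0.83). In the other lists, the matrix genes SPARC, LUM and FN1 differed by 0.11, 0.07 and 0.31, the vessel genes PLVAP, ENG and EMCN by 0.13, 0.09 and 0.30, and the contractile genes ACTA2, MYLK and CNN1 by 0.02, -0.05 and 0.13. The haemoglobin gene HBA differed by -0.34 (SE 0.35) and HBG by -0.05 (SE 0.39).

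**Figure D4:**
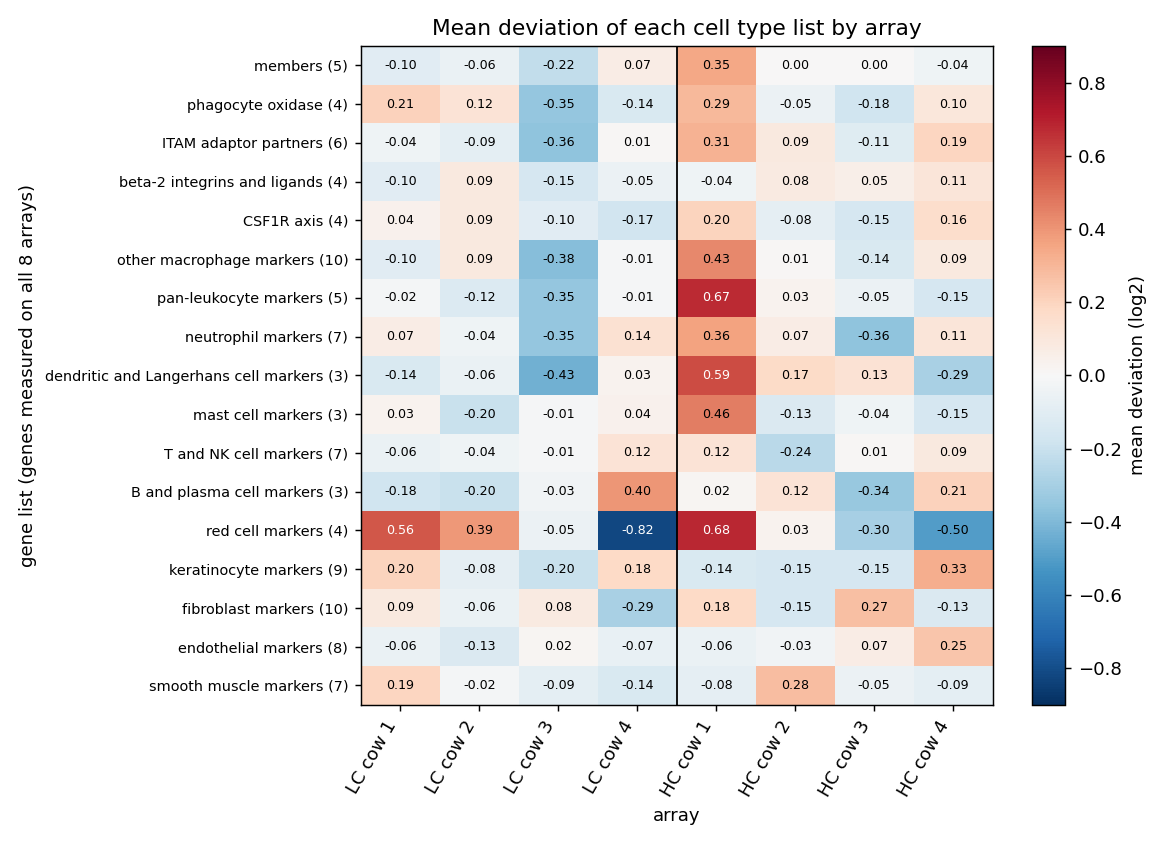
Mean deviation (log2) of each gene list from its own mean over the 8 arrays, for LC (left of the line) and HC arrays, with the number of genes measured on all 8 arrays in brackets; each cell prints its value. The HC array of cow 1 is at 0.35 for the marker set, at 0.67 for pan-leukocyte markers and at -0.14 for keratinocyte markers.

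Among 6464 other genes well above background on all 8 arrays, those most like the mean of the 5 markers were sought by the Pearson r over the 8 arrays. The highest 8 were MS4A7 (0.959), BIN2 (0.958), CD86 (0.945), ORMDL1 (0.939), RNF19A (0.938), SFTPC (0.938), BIRC3 (0.936) and KIT (0.931). MS4A7 is a membrane protein of macrophages, BIN2 a membrane-curving protein of leukocytes, and CD86 the costimulatory ligand on antigen-presenting cells. MS4A7 had log2 signals of 5.70, 5.85, 5.31 and 6.09 on LC and 6.62, 5.76, 5.87 and 5.99 on HC, and like the other 7 it was highest on the HC array of cow 1. The lowest r was that of LAMB3 (-0.968), a chain of the laminin that anchors basal keratinocytes, ahead of MDGA1 (-0.936) and SLC16A13 (-0.924). LAMB3 had 12.43, 12.39, 12.82 and 12.32 on LC and 11.48, 12.26, 12.42 and 12.41 on HC, lowest where the markers were highest. These r are descriptions over 8 arrays of 4 cows, picked as the extremes of many genes.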

How the data were processed

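Rumen papillae of 4 cows on 2 diets were measured on 8 single-colour arrays. The labels give the diet, the cow and the period of each. As deposited by the authors, each array has a scanner file from Feature Extraction 10.7.3.1 with a background-subtracted intensity per spot, not normalized between arrays, and the series has a table of quantile-normalized log2 values (median of each column 6.80). The intensity was used, and the deposited log2 table was an alternative. Control and outlier spots were left out (0 to 13 outlier spots per array, and no spot was saturated), log2 intensities were quantile-normalized (limma 3.58.1, R 4.3.3), and duplicate spots, 2 for each marker, were averaged by probe. A probe was well above background on an array if all its kept spots were. Each measured marker had 1 probe; for other genes the brightest was used. Of 10176 probes with a RefSeq accession, 8297 were named through the gene table (ARS-UCD2.0), and no positions are given because the array's build differs.

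Diet, period and their interaction were fitted in limma to all 21475 probes (4 residual and 2.26 prior degrees of freedom), with Benjamini-Hochberg adjustment over all of them, and cow pairs were compared on cow means. The fit was tested on simulated data, in which arrays varied independently and held no cow or period effect. The smallest exact permutation p for 4 arrays against 4 is 0.0286. The labels name the cows, which pairs the arrays. Deviations from the diet means of the LC and HC arrays of a cow correlated with r of 0.285, 0.298, 0.467 and 0.113 across 16030 probes, against -0.237 to 0.185 between cows. Plots were drawn with matplotlib 3.10.9 in Python 3.11.15 with pandas 2.3.3.

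The markers and lists were chosen with earlier results of these data known. Named are all 10 markers; of each other list the genes called for diet or period, or else the brightest 2 and the one with the largest diet difference; and the 8 genes most like and 3 least like the markers' mean. One gene of the partner lists that this rule names is counted but not reported here by name. The alternatives were another scaling, normexp background correction (offset 50, on the median signals of spot and background), the deposited table, filters on dim probes, cow as a block, other models, single periods and leaving out each array.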

Additional observations from a re-analysis of the deposited data

Results flagged for a closer look

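The diet difference of AIF1 was positive in cows 1 and 2 (0.77 and 0.15) and negative in cows 3 and 4 (-0.16 and -0.43), so the cow pairs moved in opposite ways. Since the pairs received the diets in opposite order, a diet difference that varies between the pairs cannot be told apart from a period difference. The period difference of AIF1, 0.38, had an unadjusted p of 0.0679 in limma, and of 0.0492 if cow was a replicate block. The mean of the 5 detected markers on the HC array of cow 1, 8.72, stood apart from the other 3 HC arrays, of which the nearest was at 8.38.

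Among 59 genes and the markers' mean, 120 groups of 4 arrays were looked at for a value far from the others, and 14 had one. Chance gives such a value in about 1 in 20 independent groups. These groups share the arrays, and CD86, ORMDL1 and LAMB3 were picked for their likeness to the markers' mean, itself apart on the HC array of cow 1, so the 14 cannot be read against that share. On the HC array of cow 1 they were CORO1A at 8.21, CD86 at 5.44 and ORMDL1 at 5.46, all high, and LAMB3 at 11.48, low. On the LC array of cow 3 they were ARHGDIB at 11.51, high, and CCR7 at 4.52, LGALS3 at 13.66 and KRT6A at 17.08, all low. FCGR3A was low at 6.79 on the HC array of cow 3. On the LC array of cow 4 JCHAIN was high at 6.31 and MYLK low at 12.11. On the HC arrays of cows 4 and 2, ACTA2 was low at 12.67 and CNN1 high at 12.08.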

How the results depend on the processing

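Of 24 other settings for diet, 0 of the 5 markers were called in all but one: within period 1 alone, 1 was, ITGB2 with 0.60 and an unadjusted p of 0.0226 from limma, beside 759 of 21475 probes (3.53%) in that setting. ITGB2 had -0.39 within period 2. CD68 turned to -0.23 within period 1, and AIF1 to -0.34 within period 1, -0.04 without the LC array of cow 3, -0.05 without the HC array of cow 1 and -0.07 without both arrays of cow 1, a setting added after seeing the data. As each array was left out in turn, AIF1 ranged from -0.05 to 0.22, CD68 from 0.01 to 0.27 and ITGB2 from 0.02 to 0.18; without both arrays of cow 1 ITGB2 was at 0. LAPTM5 (0.06 to 0.26) and FCER1G (0.10 to 0.49) kept their sign in all 24. The mean of the 5 was 0.07 to 0.21 as each array was left out, 0.06 within period 1, 0.25 within period 2, 0.10 after normexp and 0.06 without cow 1. For period, 0 markers were called in 20 other settings, in which 0.149% (normexp) to 5.39% (scaling to the 75th percentile) of all probes were. The period difference of AIF1, 0.38, had a limma p of 0.0492 if cow was a replicate block and 0.0395 if it was a random one. Its p was 0.134 without the interaction, and 0.155 in the replicate block without moderation. FCER1G had -0.22 with p of 0.0578, 0.0761, 0.166 and 0.0467 in the same order. As each array was left out in turn, AIF1 had 0.24 to 0.51 for period. The mean of several probes was not run, as each marker has 1 probe.

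With cow as a replicate block and period, 0 of the 5 markers were called, beside 276 of 21475 probes (1.29%). In that setting FCER1G had a difference of 0.30 with a limma p of 0.0244 (adjusted 0.843). Over its 24 settings FCER1G had p of 0.0207 to 0.564, under 0.05 in 5. The block changed no call of the markers.

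Over all probes, 198 were called for diet here, 415 with the deposited table, 8 after normexp, 55 among probes well above background on all 8 arrays and 812 within period 2. In the fit used here the smallest adjusted p was 0.412, and 784 probes had an unadjusted p under 0.05. With the deposited table, 5 probes had an adjusted p under 0.05. The cause of these differences between settings was not tested.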
